A study of Mus musculus with 10 samples.

Results

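Transcripts of 9 genes of the mitogen-activated protein kinase (MAPK) pathway were followed in RAW264.7 cells, a mouse macrophage line, under LPS and **1**, an unsaturated fatty acid with a ketone at carbon 9 conjugated to an E double bond at carbon 7. The genes were chosen by name, with earlier results of these data known, out of 43432 genes in the deposited table. They were the 4 kinase genes Mapk3, Mapk8, Mapk14 and Mapkapk2 and the 5 dual-specificity phosphatase genes Dusp1, Dusp2, Dusp4, Dusp6 and Dusp16. The study had 5 conditions with 2 libraries each. The labels give 0.5% DMSO for the conditions without **1** and name no solvent for those with it. One condition held solvent alone (DMSO), one held solvent and 1 µg/mL of LPS (DMSO + LPS), and 3 held that LPS together with **1** at a final 32, 10 or 3.2 µM. Cells received **1** or solvent 1 h before LPS, RNA was collected after 12 h, and no condition held **1** without LPS.

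MAP kinases relay signals from receptors such as TLR4, which binds LPS, to transcription and mRNA stability. Mapk3 encodes ERK1, Mapk8 encodes JNK1 and Mapk14 encodes p38α, and each is switched on by phosphorylation of a threonine and a tyrosine in its activation loop. Mapkapk2 encodes MK2, a kinase that p38 activates and that stabilizes cytokine mRNAs through the TTP protein. Dual-specificity phosphatases remove both phosphates and thereby switch the kinases off, and several of their genes are induced by the kinases they oppose. Dusp1, Dusp2 and Dusp4 encode nuclear enzymes, Dusp6 encodes a cytoplasmic enzyme selective for ERK, and Dusp16 encodes an enzyme best known for acting on JNK. RNA-seq measures their transcripts and not the phosphorylation of the kinases.

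All libraries held between 45966803 and 58976377 counts, and 14172 genes, including all 9, passed a filter on low counts. The lowest count of any of the 9 genes was 298, for Dusp2 in DMSO replicate 1, where the counting error was 5.79%. The 8 macrophage markers were read in every library (summed level 7850 to 11800 CPM, counts relative to the TMM-scaled library total), and those of T cells and B cells summed to at most 0.0699 and 0.354 CPM. The macrophage sum was lowest at 32 µM (8280 and 7850 CPM), against 10200 and 10300 CPM in DMSO + LPS. Single markers moved in both directions between these conditions, with Lyz2 lower (mean 2710 against 4130 CPM) and Csf1r higher (1070 against 814 CPM) at 32 µM. Some libraries stood apart. Replicate 1 at 10 µM held transcripts of epithelial cells (4 markers summing to 38.2 CPM, among them 1039 counts of Krt8 and 451 of Epcam) and of fibroblasts (5 markers, 4.56 CPM). Replicate 1 at 3.2 µM held fewer (5.78 and 0.798 CPM), and in every other library the epithelial markers summed to at most 0.085 CPM and the fibroblast markers to at most 0.286 CPM. In replicate 2 at 32 µM the ribosomal-RNA-like features Gm42418 and Gm23935 took 3.61% of all counts, against 0.0646% to 0.263% in the others. The labels number the libraries as biological replicates without describing the cultures, so p-values measure the spread between these libraries. In a bulk sample, fewer cells expressing a gene and less RNA per cell cannot be told apart.

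The promoters of Dusp2 and Dusp1 are shown because LPS raised them most among the 5 phosphatase genes chosen, and because **1** at 32 µM moved them in opposite directions, as described below. Each run reads 5′ to 3′ on the strand of the gene and covers 250 bases before and 50 after a RefSeq start site on GRCm38.p6 (Dusp2, chr2:127335909-127336208, plus strand; Dusp1, chr17:26508423-26508722, minus strand). Capitals mark matches on either strand to an NF-κB-type pattern (GGG, any 5 bases, CC), the cAMP response element (CRE, TGACGTCA) or its core TGACG.
Dusp2: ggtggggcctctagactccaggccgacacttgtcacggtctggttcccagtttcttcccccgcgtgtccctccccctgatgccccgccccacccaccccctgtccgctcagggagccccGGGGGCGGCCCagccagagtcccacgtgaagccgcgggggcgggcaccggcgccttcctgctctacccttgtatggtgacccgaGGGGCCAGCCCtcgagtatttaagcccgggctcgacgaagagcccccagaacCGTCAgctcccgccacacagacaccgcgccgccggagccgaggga
Dusp1: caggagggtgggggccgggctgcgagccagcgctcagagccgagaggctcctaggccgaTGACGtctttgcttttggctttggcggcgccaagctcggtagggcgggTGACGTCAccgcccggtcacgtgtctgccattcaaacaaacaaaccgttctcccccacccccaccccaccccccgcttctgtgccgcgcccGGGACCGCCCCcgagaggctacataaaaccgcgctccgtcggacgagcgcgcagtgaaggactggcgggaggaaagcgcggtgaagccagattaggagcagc

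The Dusp1 window held the whole CRE at −143 from the start site and a separate core at −191, and it matched the NF-κB-type pattern at −52. Of 32851 RefSeq promoter windows of the same length, 1.79% held the whole CRE and 20.8% the core, which is also part of the CRE. The Dusp2 window held no whole CRE, a core at 6 on the minus strand, and overlapping matches to the NF-κB-type pattern at −131 and −47. That pattern occurred in 50.8% of all windows. Of the 9 genes 7 had a window, and Mapk3 and Dusp4 had none. The whole CRE was found in Dusp1 alone of the 7, the core also in Dusp2, Dusp16, Mapkapk2 and Mapk8, and the NF-κB-type pattern in Dusp1, Dusp2, Dusp6, Mapkapk2 and Mapk8. The AP-1 pattern TGANTCA, which 7.81% of all windows held, was in none of the 7, nor were the TATA box (TATAAA, 13.6% of all windows) and the CArG box (1.63%). Matches to these and the following patterns are not in capitals. The antioxidant response element pattern (TGAC, any 3 bases, GC), held by 12.4% of all windows, occurred in Dusp1 at −133, in Mapkapk2 at 11, and, in second windows of these genes, in Mapk14 at 27 and in Mapk8 at −101. The interferon response core (GAAA, any 2 bases, GAAA), held by 3.44%, occurred in the same second window of Mapk14 at −29. A match describes the letters and not a bound factor.

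On GRCm38 the phosphatase genes lie at chr17:26505590-26562128 (Dusp1, minus strand), chr2:127336159-127338376 (Dusp2, plus), chr8:34807297-34819894 (Dusp4, plus), chr10:99263231-99267489 (Dusp6, plus) and chr6:134715468-134792625 (Dusp16, minus). The kinase genes lie at chr7:126759601-126765819 (Mapk3, plus), chr14:33377898-33447158 (Mapk8, minus), chr17:28691329-28748406 (Mapk14, plus) and chr1:131053700-131097826 (Mapkapk2, minus).

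In DMSO 3 of the 4 kinase transcripts were more abundant than any phosphatase transcript. Levels between genes were compared as CPM per kilobase of merged exon, which understates genes with long alternative exons such as Mapk8. The merged length of Dusp1 also includes exons of a noncoding upstream transcript, so its level is understated too. The order of genes close in level therefore depends on the length used, and libraries that do not overlap do not settle it. On this scale Mapkapk2 stood first at 113 ± 2.18 (SD, n = 2), followed by Mapk3 at 40.2 ± 0.954 (SD, n = 2), Mapk14 at 32.8 ± 0.822 (SD, n = 2) and Dusp4 at 29.4 ± 3.04 (SD, n = 2). Dusp6 (8.44 ± 0.263, SD, n = 2), Dusp1 (7.62 ± 0.0176, SD, n = 2) and Dusp16 (3.78 ± 0.0854, SD, n = 2) were lower, and Dusp2 (2.67 ± 0.201, SD, n = 2) and Mapk8 (2.58 ± 0.0925, SD, n = 2) were last, with overlapping libraries. All other neighbours in this order had libraries that did not overlap, though those of Mapk14 (33.3 and 32.2) and Dusp4 (27.2 and 31.5) and those of Dusp6 (8.25 and 8.62) and Dusp1 (7.61 and 7.64) came close. With LPS the order changed. Mapkapk2 stayed first at 333 ± 7.49 CPM per kilobase (SD, n = 2), and Dusp4 (81.7 ± 0.86, SD, n = 2) and Dusp2 (75.1 ± 2.25, SD, n = 2) came next, above Mapk14 (30.3 ± 1.49, SD, n = 2), Dusp1 (29.8 ± 0.873, SD, n = 2) and Mapk3 (25.1 ± 0.419, SD, n = 2). Mapk14 and Dusp1 overlapped there. At 32 µM of **1**, Dusp4 reached 119 ± 8.07 CPM per kilobase (SD, n = 2), Dusp1 was at 37.2 ± 0.816 (SD, n = 2), and Dusp2, at 28.9 ± 1.55 (SD, n = 2), lay beside Mapk14 at 28 ± 0.58 (SD, n = 2), with overlapping libraries.

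**Figure D1:**
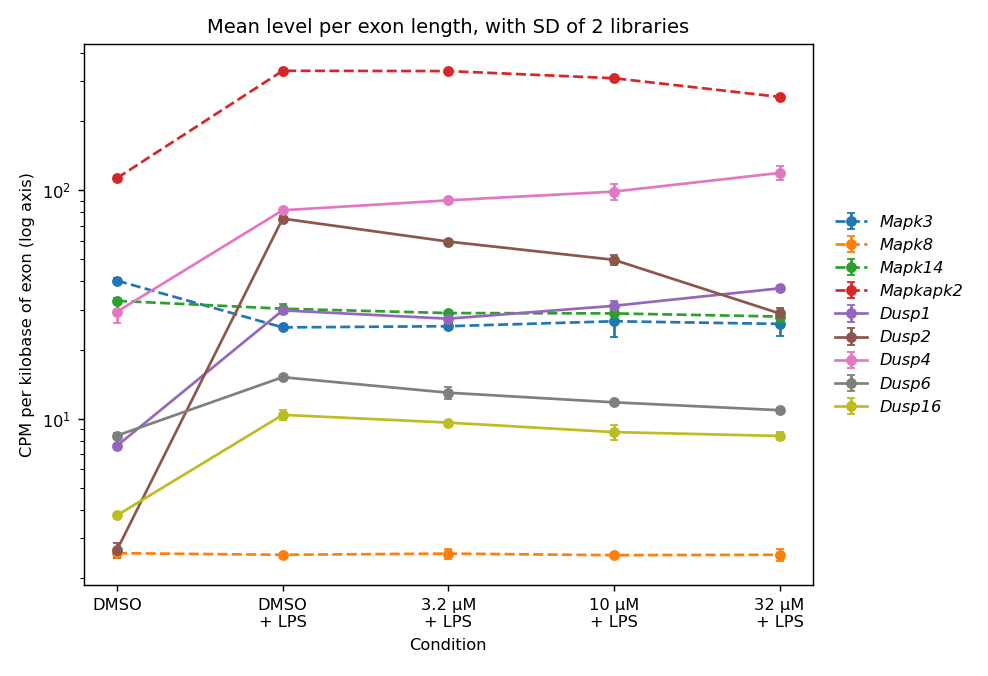
Mean CPM per kilobase of exon of the 9 genes (y axis, log scale) in the 5 conditions (x axis), with bars for the SD of 2 libraries, solid lines for phosphatase genes and dashed lines for kinase genes. Dusp2 lay beside Mapk8 in DMSO (2.67 and 2.58), beside Dusp4 in DMSO + LPS (75.1 and 81.7), and below it in every condition with **1**.

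The comparison of DMSO + LPS with DMSO asked how LPS alone set these transcripts. All 5 phosphatase genes rose, as did Mapkapk2, while Mapk3 fell and Mapk8 and Mapk14 did not pass the test. A gene passed when its adjusted p (Benjamini-Hochberg over all 14172 genes, edgeR's quasi-likelihood test) was below 0.05. So 6 of the 9 rose and 1 fell, where 25.2% of all tested genes rose and 25.8% fell (50.9% in either direction). These 7 also changed by at least 1.5-fold, as did 28.2% of all tested genes, and 8 of the 9 had groups that did not overlap, as did 76.9% of all tested genes. The median log2 fold change of the 9 was 1.466, and that of all tested genes was 0.003. Because the 9 genes and the lists below were chosen with earlier results known, the shares of all tested genes, here and below, give scale alone. They do not test the set.

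Dusp2, whose product was first described in activated immune cells, moved most. It was at 5.07 and 5.64 CPM in the DMSO libraries and at 147 and 154 CPM in DMSO + LPS, a 28.1-fold rise (log2 fold change 4.81, SE 0.0775, adjusted p = 3.83e-09). Dusp1 (MKP-1), the phosphatase of p38 and JNK, was at 25.2 and 25.3 CPM in DMSO and at 96.8 and 101 CPM with LPS. Every LPS library was thus above every DMSO library for both genes, and the log2 fold change of Dusp1 was 1.97 (SE 0.0515, adjusted p = 3.62e-08).

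Dusp4 (MKP-2), a relative of Dusp1, went from 74.6 and 86.4 CPM to 226 and 222 CPM. Its log2 fold change was 1.48 (SE 0.0881, adjusted p = 3.36e-06). Dusp16 (MKP-7) went from 29 and 30 CPM to 84.5 and 78.4 CPM (log2 fold change 1.47, SE 0.068, adjusted p = 7.81e-07). The rises of Dusp4 and Dusp16 were close in size, and that of Dusp6 (MKP-3) was the smallest of the 5 phosphatase genes. Dusp6 was at 25.8 and 27 CPM in DMSO and at 48 and 47.5 CPM with LPS (log2 fold change 0.85, SE 0.0579, adjusted p = 7.22e-06).

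The kinase genes behaved less alike. Mapkapk2 was at 340 and 350 CPM in DMSO and at 998 and 1030 CPM in DMSO + LPS (log2 fold change 1.55, SE 0.0385, adjusted p = 2.68e-08). Mapk3 fell from 92.3 and 89.3 CPM to 57.4 and 56 CPM (log2 fold change −0.68, SE 0.105, adjusted p = 8.76e-04). Both kinase genes had groups that did not overlap. Mapk14 was at 146 and 141 CPM in DMSO and 137 and 128 CPM with LPS (log2 fold change −0.11, 95% interval −0.25 to 0.02, adjusted p = 0.147). Mapk8 was at 28.8 and 30.3 CPM against 29.2 and 29 CPM, so its groups overlapped (log2 fold change −0.02, 95% interval −0.17 to 0.13, adjusted p = 0.822). The 7 changes that passed held under every alternative tried. Scaling by the library total alone shifted the median of all genes to −0.202, and on that scale Mapk8 (−0.23, adjusted p = 0.0126) and Mapk14 (−0.32, adjusted p = 0.00228) also passed as lower.

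**Figure D2:**
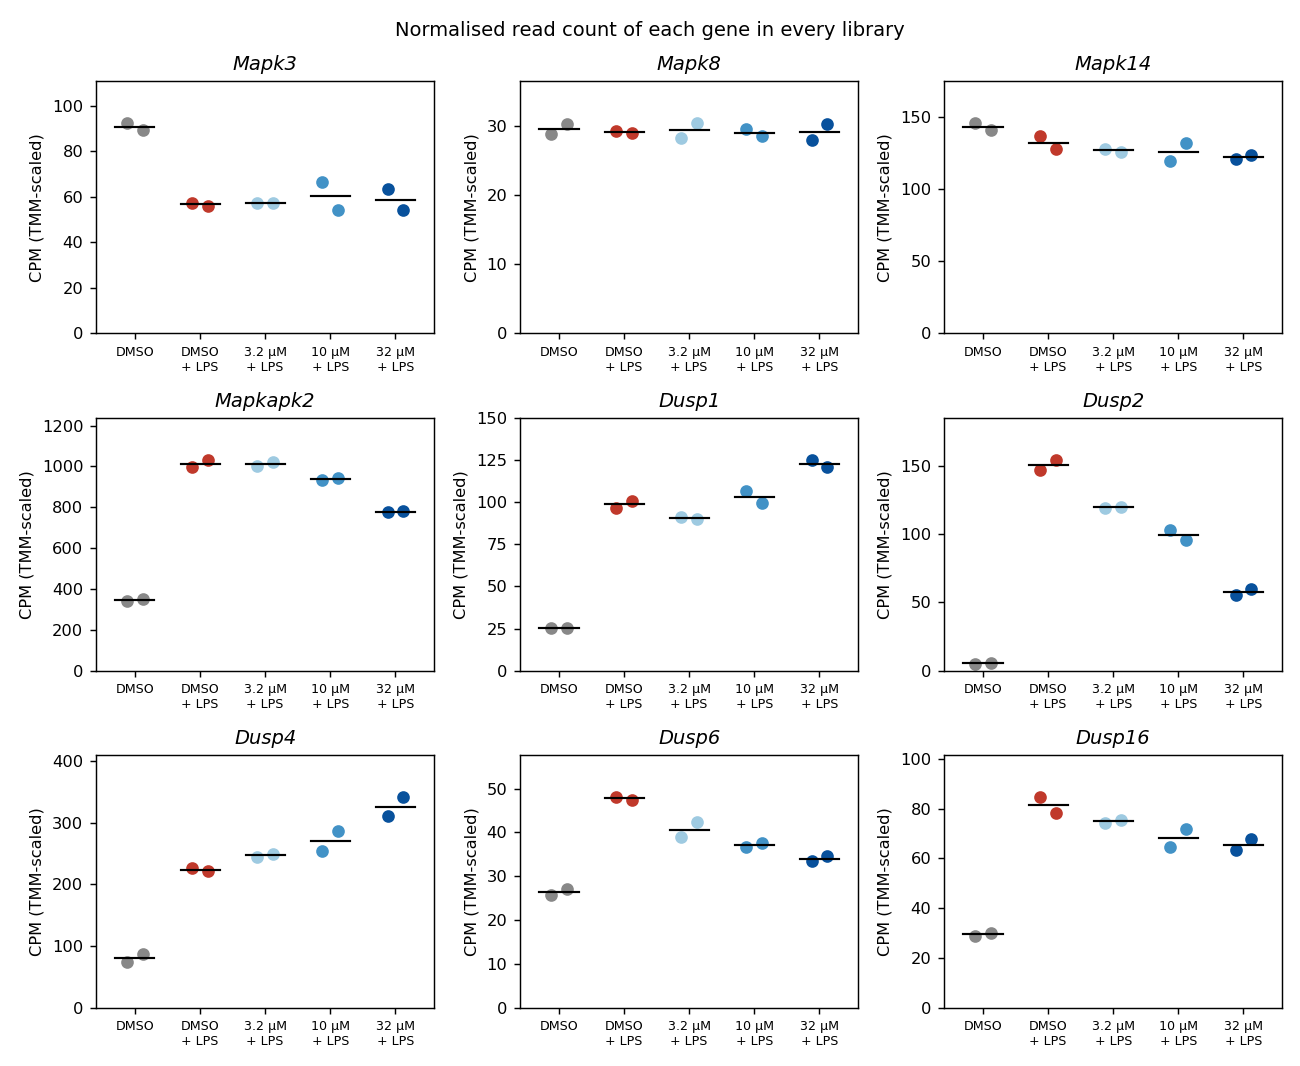
CPM of each gene (y axes, from 0) in every library (points) under the 5 conditions (x axes), with lines for the mean of 2 libraries. Dusp2 ran from 154 CPM down to 55.6 CPM across DMSO + LPS and the doses of **1**, Dusp4 ran from 222 up to 341 CPM, and Mapk8 lay between 27.9 and 30.4 CPM in all libraries.

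The comparison of 32 µM **1** + LPS with DMSO + LPS asked what the compound did to cells given LPS. The 5 phosphatase genes all changed but in different directions. Dusp2, Dusp6 and Dusp16 fell, Dusp1 and Dusp4 rose, and of the kinase genes Mapkapk2 fell. Thus 2 of the 9 genes were higher and 4 lower, where 4.06% of all tested genes were higher and 5.72% lower (9.78% in either direction). Of these only Dusp2 reached 1.5-fold, as did 4.18% of all tested genes, and 7 of the 9 had groups that did not overlap, as did 50% of all tested genes. The median log2 fold change was −0.115 over the 9 and 0.008 over all tested genes.

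Dusp2 changed most here as well. It was at 55.6 and 60 CPM at 32 µM, against 147 and 154 CPM in DMSO + LPS, which is 38.4% of the level with LPS alone. Its log2 fold change was −1.38 (SE 0.0653, adjusted p = 9.25e-06). Dusp6 was at 33.4 and 34.6 CPM against 48 and 47.5 CPM (log2 fold change −0.49, SE 0.0576, adjusted p = 0.0012). In both genes the 32 µM libraries lay between DMSO and DMSO + LPS.

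Dusp16 was at 63.5 and 67.6 CPM against 84.5 and 78.4 CPM (log2 fold change −0.31, SE 0.0663, adjusted p = 0.0224). Its groups did not overlap, but the adjusted p rose above 0.05 when any 1 of 6 libraries was left out. It was 0.169 and 0.0546 without replicate 1 and 2 of DMSO + LPS, 0.123 and 0.054 without replicate 1 and 2 at 32 µM, 0.054 and 0.0544 without replicate 1 and 2 at 3.2 µM, and 0.0539 in the fit of the 4 compared libraries alone. Mapkapk2 was at 776 and 781 CPM against 998 and 1030 CPM, 76.8% of its level with LPS alone (log2 fold change −0.38, SE 0.0377, adjusted p = 4.71e-04).

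Dusp4 rose further above its LPS level. It was at 310 and 341 CPM against 226 and 222 CPM (log2 fold change 0.54, SE 0.0863, adjusted p = 0.00575). Dusp1 was at 125 and 121 CPM against 96.8 and 101 CPM (log2 fold change 0.32, SE 0.0491, adjusted p = 0.00484). In both genes each 32 µM library was above each DMSO + LPS library. Without replicate 1 of DMSO + LPS the adjusted p became 0.056 for Dusp1 and 0.051 for Dusp4, and without its replicate 2 it became 0.0579 for Dusp4. The log2 fold changes then stayed at 0.29 for Dusp1 and at 0.55 and 0.53 for Dusp4.

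The 3 MAP kinase genes themselves did not pass at 32 µM. Mapk3 was at 63.5 and 54 CPM against 57.4 and 56 CPM (log2 fold change 0.05, 95% interval −0.19 to 0.29, adjusted p = 0.871). Mapk8 was at 27.9 and 30.2 CPM (95% interval −0.15 to 0.15, adjusted p = 0.994) and Mapk14 at 121 and 124 CPM (log2 fold change −0.11, 95% interval −0.25 to 0.02, adjusted p = 0.313). Without replicate 2 at 32 µM, the library rich in ribosomal-RNA-like features, Dusp2, Dusp6, Mapkapk2, Dusp1 and Dusp4 passed in the same directions.

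**Figure D3:**
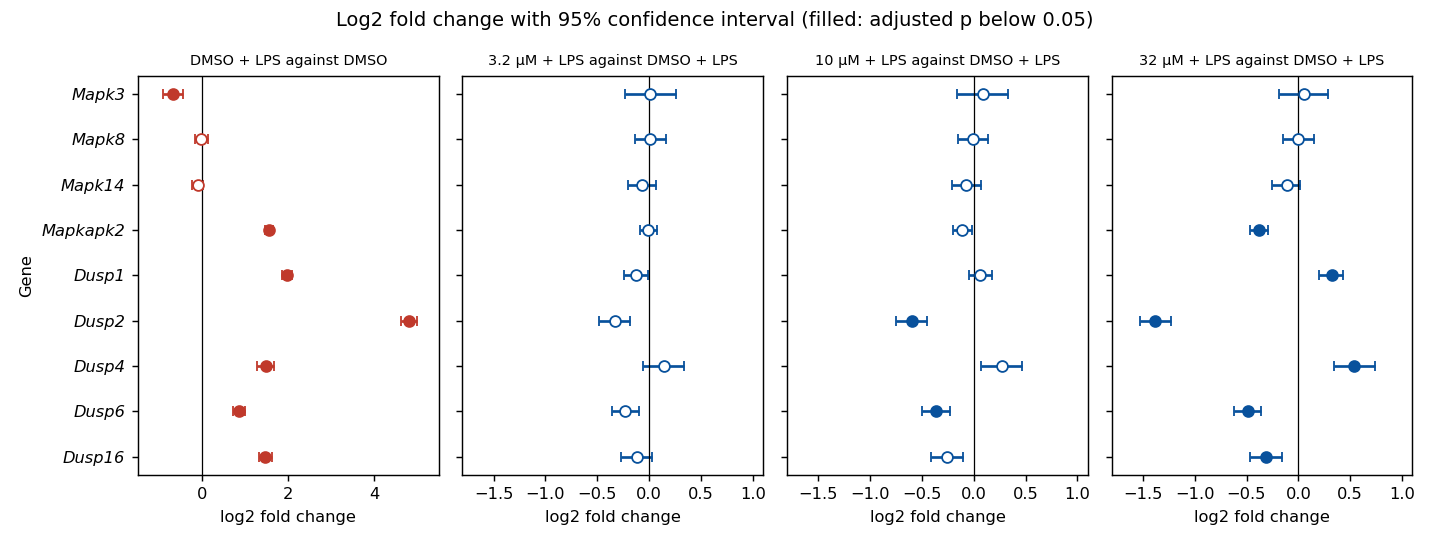
Log2 fold change (x axes) of the 9 genes (rows) with 95% confidence intervals in 4 comparisons, filled where the adjusted p was below 0.05. Under LPS 7 symbols are filled, and against DMSO + LPS the filled symbols number 0 at 3.2 µM, 2 at 10 µM and 6 at 32 µM, with Dusp2 farthest from 0 at every dose.

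The lower doses addressed whether these differences depended on the amount of **1**. All 3 doses were set against the same DMSO + LPS libraries, so their differences from them are not independent. At 10 µM, 2 of the 9 genes were lower than in DMSO + LPS and 0 higher, where 1.7% of all tested genes were lower and 0.967% higher (2.67% in either direction). Dusp2 alone of the 9 reached 1.5-fold, as did 0.861% of all tested genes, and 5 of the 9 had groups that did not overlap, as did 35.8% of all tested genes. Dusp2 was at 103 and 95.9 CPM, 66.1% of the level with LPS alone (log2 fold change −0.60, SE 0.0641, adjusted p = 0.00353). Dusp6 was at 36.6 and 37.5 CPM (log2 fold change −0.36, SE 0.0575, adjusted p = 0.0173). Neither group overlapped with DMSO + LPS.

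The call of Dusp2 at 10 µM ended without replicate 2 of DMSO + LPS (adjusted p = 0.0502) and in the fit of the 4 compared libraries alone (0.0942), which also ended that of Dusp6 (0.166). The call of Dusp6 also ended without replicate 1 of DMSO + LPS (0.149), its replicate 2 (0.129) or replicate 1 at 10 µM (0.088), the library with epithelial transcripts. The log2 fold changes were −0.35 to −0.40 for Dusp6 and −0.57 to −0.65 for Dusp2 whichever library was left out. Dusp16 was at 64.6 and 71.7 CPM (log2 fold change −0.26, adjusted p = 0.116), and passed without replicate 2 at 10 µM (−0.35, adjusted p = 0.0418), in DESeq2 (−0.26, adjusted p = 0.0325) and with a short-transcript score, each library's relative level of genes with short transcripts, as a term (−0.25, adjusted p = 7.45e-04). With that score Dusp4 (0.28, adjusted p = 2.79e-05) and Mapkapk2 (−0.11, adjusted p = 0.0299) passed too, and the genes that passed rose from 378 to 1666 of all tested. Without it Dusp4 was at 254 and 286 CPM (0.27, adjusted p = 0.218), Dusp1 at 107 and 99.5 CPM (0.06, adjusted p = 0.747) and Mapkapk2 at 935 and 944 CPM (−0.11, adjusted p = 0.265). The log2 fold changes of Mapk3, Mapk8 and Mapk14 at 10 µM were 0.09, −0.01 and −0.07, with adjusted p between 0.778 and 0.988.

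At 3.2 µM edgeR's quasi-likelihood test passed 0 of the 9 genes and 0 of all tested genes (0% in each direction), with 600 genes at an unadjusted p below 0.05. There edgeR's likelihood ratio test passed 8 genes, DESeq2 35, and edgeR on the 4 libraries alone 344. Dusp2 was at 119 and 120 CPM, below both DMSO + LPS libraries (log2 fold change −0.33, 95% interval −0.48 to −0.18, adjusted p = 0.514). It was the only one of the 9 that passed in DESeq2 (adjusted p = 0.00289) and in the fit of the 4 libraries (adjusted p = 0.00401). Dusp6 was at 38.9 and 42.4 CPM (−0.23, 95% interval −0.36 to −0.10, adjusted p = 0.811). Dusp1 was at 91 and 90.2 CPM, Dusp4 at 245 and 250 CPM and Dusp16 at 74.4 and 75.6 CPM, each with an adjusted p of 0.999. With the short-transcript score as a term, Dusp2, Dusp4 and Dusp6 passed, among 183 of all tested genes. The 5 phosphatase genes and Mapk14 had groups that did not overlap, 6 of the 9, as did 45.9% of all tested genes. Mapkapk2 was at 1000 and 1020 CPM (−0.01, 95% interval −0.09 to 0.08), and the log2 fold changes of Mapk3, Mapk8 and Mapk14 were 0.01, 0.01 and −0.07.

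Neighbouring doses were also compared directly. Between 32 and 10 µM, 1 of the 9 genes was higher at 32 µM and 2 were lower, where 0.804% of all tested genes were higher and 1.95% lower (2.76% in either direction). Dusp2 alone of the 9 reached 1.5-fold, as did 1.32% of all tested genes, and 5 of the 9 had groups that did not overlap, as did 32.6% of all tested genes. Dusp2 was lower at 32 µM (log2 fold change −0.78, SE 0.0648, adjusted p = 6.12e-04), and this difference passed whichever library was left out but not in the fit of the 4 compared libraries alone (adjusted p = 0.0943). Mapkapk2 was lower by −0.27 (adjusted p = 0.00851) and Dusp1 higher by 0.26 (adjusted p = 0.0373). Without replicate 1 or 2 at 32 µM the adjusted p of Mapkapk2 became 0.0606 or 0.0581, and in the fit of the 4 compared libraries it became 0.38 for Mapkapk2 and 0.522 for Dusp1. The likelihood ratio test gave 0.0771 for Mapkapk2. Of the leave-outs of 1 library, the call of Dusp1 held only for replicate 1 at 10 µM, and otherwise its adjusted p lay between 0.0678 and 0.207. Dusp4 (0.27, adjusted p = 0.229), Dusp6 (−0.12, adjusted p = 0.442) and Dusp16 (−0.06, adjusted p = 0.824) did not pass. With the short-transcript score Dusp4 passed (0.23, adjusted p = 2.31e-04), where 1472 of all tested genes passed against 391 without it.

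Between 10 and 3.2 µM 0 of the 9 genes passed with edgeR's quasi-likelihood test, where 0.254% of all tested genes were higher at 10 µM and 0.649% lower (0.903% in either direction). Groups did not overlap for 6 of the 9 and for 34.2% of all tested genes. Dusp2 differed by −0.26 (unadjusted p = 0.00351, adjusted p = 0.159 with edgeR's quasi-likelihood test), Dusp1 by 0.19 (adjusted p = 0.207) and Dusp16 by −0.14 (adjusted p = 0.664). In DESeq2 1 of the 9 passed, namely Dusp2 (adjusted p = 0.0119). With the short-transcript score Dusp2 (−0.27, adjusted p = 0.00284), Dusp1 (0.20, adjusted p = 0.00225) and Dusp16 (−0.16, adjusted p = 0.0248) passed, where 1001 of all tested genes passed against 128 without it. The mean CPM of Dusp2 was 150 ± 4.51, 119 ± 1.28, 99.4 ± 4.91 and 57.8 ± 3.11 (SD, n = 2) at 0, 3.2, 10 and 32 µM with LPS. For Dusp4 these means were 224 ± 2.36, 247 ± 3.06, 270 ± 22.7 and 325 ± 22.1 CPM (SD, n = 2). The means were thus in the order of dose for both genes, in opposite directions. They were in that order, falling, also for Dusp6 (47.7, 40.7, 37.1 and 34 CPM) and Dusp16 (81.4, 75, 68.1 and 65.6 CPM). The same held for the kinase genes Mapk14 (133, 127, 126 and 122 CPM) and Mapkapk2 (333, 332, 309 and 256 CPM per kilobase). Against DMSO + LPS, edgeR's quasi-likelihood test passed Mapk14 at no dose and Mapkapk2 at 32 µM alone. The libraries of Dusp16 overlapped between 10 µM (64.6 and 71.7 CPM) and 32 µM (63.5 and 67.6 CPM), and without replicate 2 at 10 µM its difference between these doses was 0.03. Dusp1 was lowest at 3.2 µM (90.6 ± 0.528 CPM, SD, n = 2) and highest at 32 µM (123 ± 2.7 CPM, SD, n = 2).

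The comparison of 32 µM **1** + LPS with DMSO placed these levels against resting cells. There 6 of the 9 genes were higher and 2 lower, where 25.7% of all tested genes were higher and 25.1% lower (50.9% in either direction). By at least 1.5-fold 6 of the 9 differed, as did 27.1% of all tested genes, and 8 of the 9 had groups that did not overlap, as did 71.4% of all tested genes. All 5 phosphatase genes were above their level in DMSO. Dusp2 was 10.8-fold higher (log2 fold change 3.43, adjusted p = 1.79e-08), Dusp1 4.88-fold (2.29, adjusted p = 2.36e-08) and Dusp4 4.04-fold (2.01, adjusted p = 8.02e-07). Dusp16 was higher by 1.15 (adjusted p = 3.63e-06) and Dusp6 by 0.36 (adjusted p = 0.00107) on the log2 scale. Mapkapk2 was higher by 1.17 (adjusted p = 1.47e-07) and Mapk3 lower by −0.63 (adjusted p = 0.0014). Mapk14 was lower by −0.23 (adjusted p = 0.0124), but not without replicate 1 of DMSO (0.0634) or replicate 1 at 32 µM (0.0661). Mapk8 differed by −0.02 (adjusted p = 0.798). Scaling by the library total alone, which shifts the median of all genes to −0.181 here, moved Dusp6 to 0.16 (adjusted p = 0.0488), Mapk14 to −0.43 (adjusted p = 4.70e-04) and Mapk8 to −0.23 (adjusted p = 0.0133).

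The other genes of the pathway were taken from lists of 81 genes, of which 74 were tested. With LPS 30 of them rose and 15 fell, which is 60.8% in either direction beside 50.9% of all tested genes. With scaling by the library total alone, which shifts all genes down, 22 rose and 26 fell. Among 19 kinases and adaptors upstream of the MAP kinases, 8 rose and 5 fell (68.4%). Map3k8 (TPL2), which activates MEK1 in macrophages, rose by 1.31 on the log2 scale, Map2k1 (MEK1) by 0.99 and Map2k3 (MKK3, which activates p38) by 0.59. Map3k5 (ASK1, −0.88), Map3k1 (MEKK1, −0.56) and Map3k7 (TAK1, −0.40) fell. Of 8 other MAP kinases tested 3 rose, namely Mapk11 (p38β, 1.22), Mapk6 (ERK3, 0.70) and Mapk7 (ERK5, 0.35), and Mapk9 (JNK2, −0.18) fell (50% of the list). Of 9 kinases downstream, 4 rose and 3 fell (77.8%), among them Rps6ka2 (RSK3, 0.52), Mapkapk5 (MK5, 0.34), Rps6ka4 (MSK2, 0.27), Rps6ka5 (MSK1, −1.27), Rps6ka1 (RSK1, −0.48) and Rps6ka3 (RSK2, −0.39).

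Among 15 other dual-specificity phosphatases 5 rose with LPS and 1 fell (40%, beside 50.9% of all tested genes). Dusp5, a nuclear phosphatase of ERK, went from 8.58 ± 0.705 to 352 ± 9.08 CPM (SD, n = 2), which as log2 fold change is 5.36 with an adjusted p of 1.54e-09. This was 41.1-fold, beside 28.1-fold for Dusp2. Dusp8 rose by 4.25 from a lower level (0.295 ± 0.0319 to 5.64 ± 0.422 CPM, SD, n = 2), and Dusp10 (MKP-5) rose by 0.97. Of 5 Sprouty and Spred inhibitors of ERK signaling 2 rose, including Spred3 (2.03), and 2 fell, Spred2 (−0.38) and Spry2 (−0.30). Of 10 transcripts known to follow ERK activity 5 rose and 2 fell (70%). Phlda1 (6.12), Ier3 (5.62) and Myc (5.35) rose, and Epha2 (−2.72) and Ccnd1 (cyclin D1, −0.47) fell. The scaffold gene Ksr1 rose by 1.95 and Lamtor3 by 0.16. In the family of TTP, the RNA-binding protein that MK2 phosphorylates, Zfp36 (TTP itself) rose by 3.28 and Zfp36l2 fell by 1.58 on the log2 scale.

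At 32 µM 11 of the 74 other genes differed from DMSO + LPS, 4 higher and 7 lower, which is 14.9% beside 9.78% of all tested genes (4.06% higher and 5.72% lower). The median over the 74 was 0.002. The counts became 1 and 4 without replicate 1 of DMSO + LPS, 2 and 3 without its replicate 2, and 2 and 4 without replicate 2 at 32 µM, while those of all tested genes fell from 1386 to 736, 740 and 894. Upstream kinases were lower in 2 of 19 cases, Map2k1 (−0.31, adjusted p = 0.0158) and Map2k3 (−0.23, adjusted p = 0.0165), and Mapk9 was the 1 of 8 other MAP kinases that passed (0.31, adjusted p = 0.00742). Rps6ka4 was lower (−0.31, adjusted p = 0.00655). Dusp14 was the 1 of 15 other phosphatases that passed (−0.54, adjusted p = 0.0445), or 6.67% of that list. Dusp5 stayed at 325 ± 4.32 CPM (SD, n = 2) against 352 ± 9.08 CPM (log2 fold change −0.11, adjusted p = 0.285), unlike Dusp2 in value, although the difference between the 2 genes was not tested. Zfp36 was lower (−0.44, adjusted p = 0.00128) and Zfp36l2 higher (0.64, adjusted p = 0.00529), so both stood nearer to their levels in DMSO.

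The transcripts known to follow ERK activity split at 32 µM, with 2 of 10 higher and 2 lower. Of all tested genes 4.06% were higher and 5.72% lower there. Fos, a subunit of AP-1, was at 136 ± 4.61 CPM against 95.5 ± 0.127 CPM (SD, n = 2), which as log2 fold change is 0.51 with an adjusted p of 5.38e-04. Fosl1 was higher by 0.25 (adjusted p = 0.034). Egr1, an immediate early transcription factor, was at 15.4 ± 0.417 CPM against 27.1 ± 0.521 CPM (SD, n = 2), which as log2 fold change is −0.82 with an adjusted p of 1.33e-04, and Ccnd1 was lower by −0.78 (adjusted p = 3.26e-05). Ier3, Myc and Phlda1 did not pass, with log2 fold changes of −0.05, −0.07 and −0.47. At 10 µM 1 of the 74 genes was higher, Fos (0.35, adjusted p = 0.0129), and 1 lower, Egr1 (−0.33, adjusted p = 0.0374), which is 2.7% beside 2.67% of all tested genes. The call of Egr1 ended whichever of the 10 libraries was left out, leaving 0 genes lower, and that of Fos ended without either replicate of DMSO + LPS. At 3.2 µM 0 of the 74 passed with edgeR's quasi-likelihood test, as did 0 of all tested genes.

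**Figure D4:**
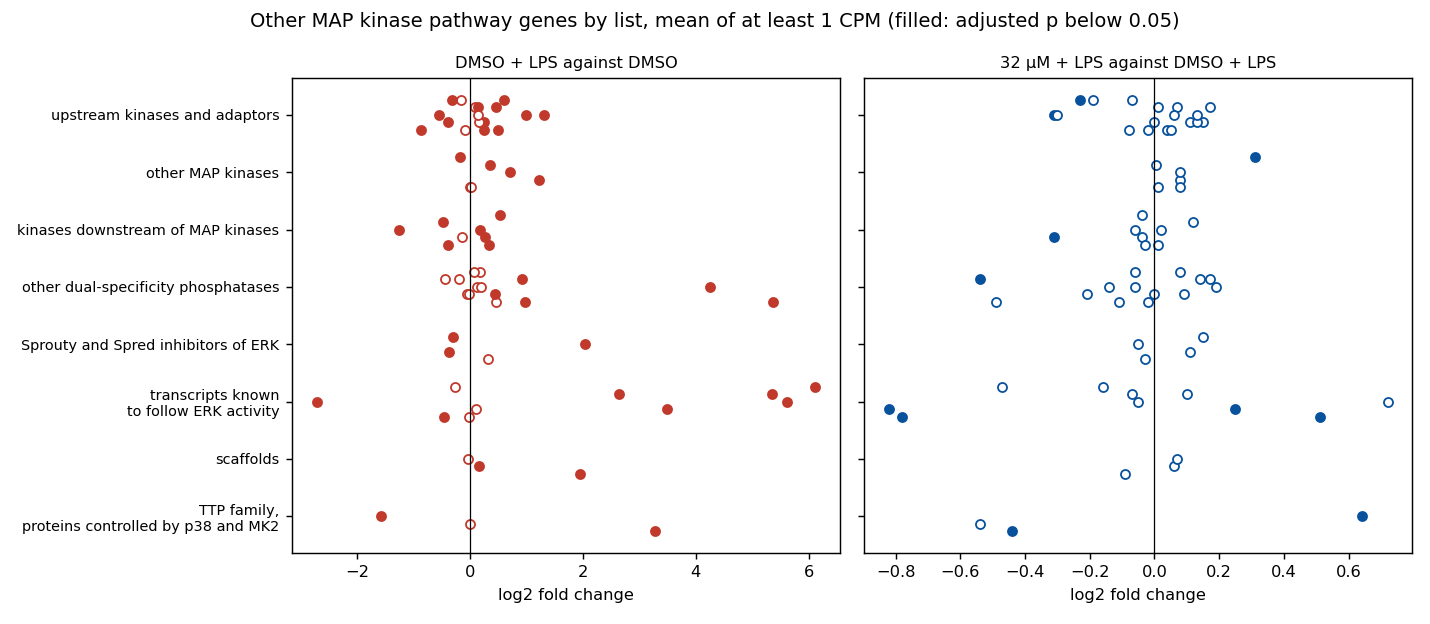
Log2 fold change (x axes) of the other pathway genes with a mean of at least 1 CPM, by list (rows), with LPS (left, red) and at 32 µM of **1** against DMSO + LPS (right, blue), filled where the adjusted p was below 0.05. The scale on the left runs to 6.12 for Phlda1, and on the right Egr1 (−0.82) and Ccnd1 (−0.78) were the lowest genes that passed.

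Genes with the pattern most like those of the 3 most variable members were sought among 9553 genes with a mean of at least 5 CPM. Likeness was the root mean square difference over 10 libraries of log2 CPM relative to DMSO + LPS. The closest to Dusp2 were Mir155hg, the host transcript of miR-155, at 0.15, the interferon-induced GTPase gene Mx1 at 0.184 and the receptor-like gene Ccrl2 at 0.235. Mir155hg, for example, was at 0.399, 12.4, 9.45, 7.58 and 4.42 CPM in DMSO, DMSO + LPS and with 3.2, 10 and 32 µM of **1**. The closest to Dusp1 were Sqor (0.0733), Rusc2 (0.0879) and Slc11a1 (0.113). The closest to Dusp4 were Il7r (0.0838), Pvr (0.101) and Abcc1 (0.11). These values describe the shape of the pattern alone.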

How the data were processed

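RAW264.7 RNA was poly(A)-selected, made into stranded libraries and sequenced with 2 × 150 cycles. The table the authors deposited holds a raw count for every Ensembl gene in each library, not normalized. The submitters' processing notes name Trimmomatic, FastQC, STAR, DESeq2 and the build mm10, and the counting tool, its use of the strand and the annotation are not given in the sources used here. Symbols, positions and exon lengths came from GENCODE M21 on GRCm38 by Ensembl identifier, and 42548 of 43432 identifiers had a symbol. The annotated Dusp1 gene includes a noncoding upstream transcript that reaches the start of Ergic1 on the other strand, and an antisense gene, Gm36328, overlaps Dusp16, so that without knowledge of the strand setting some reads could be shared. On the same strand, AC170998.1 overlaps Mapk14, Gm49037 overlaps Mapk8, Gm25549 and Gm37084 overlap Mapkapk2, and AC122252.1 and AC122252.4 overlap Dusp1, where reads could be shared under any strand setting. In any library Gm25549 and Gm37084 held at most 2 and 33 counts, against at most 57135 for Mapkapk2. Ergic1 held at most 7550, against at most 6125 for Dusp1. The other overlapping genes named here are not among the deposited genes. Promoters came from RefSeq.

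Genes were filtered by filterByExpr (minimum count 10), scaled by TMM and fitted in edgeR 4.0.16 (R 4.3.3) with 1 mean per condition over all 10 libraries (5 residual degrees of freedom, common biological coefficient of variation 0.128). Quasi-likelihood F tests compared conditions, and p-values were adjusted by Benjamini-Hochberg across the 14172 genes. SE is the log2 fold change divided by the square root of F. For groups of 2 the smallest p of an exact permutation test is 0.333. Replicates differed by more than sampling noise (chi-square per degree of freedom 3.37 to 190). The steps were tested on simulated data.

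Members and gene lists were chosen with earlier results of these data known. From each other pathway list the text names, in the LPS comparison and at each dose, at most the 3 largest rises and 3 largest falls that passed, with a mean of at least 1 CPM and groups that do not overlap. Genes named beside them that did not pass, and the response of one gene at a further dose, were chosen after their values were seen. Alternatives were DESeq2 size factors, library total alone, no filter, a mean of at least 5 CPM, a replicate block, a short-transcript score (each library's median relative level of 1418 genes whose transcripts are shorter than 1000 nt, taken from earlier work on these data), the likelihood ratio test, DESeq2 1.42.0, the 4 libraries compared alone, a 1.5-fold cutoff and leaving out each library.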

Additional observations from a re-analysis of the deposited data

How the results depend on the processing

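Of 63 log2 fold changes of the 9 genes, 26 passed, and 17 of these passed under all 9 other settings and all 10 leave-outs of a library; these were all 7 LPS calls, Dusp2, Dusp6 and Mapkapk2 at 32 µM against DMSO + LPS, and all but Mapk14 at 32 µM against DMSO. The cause was not tested for any change below. Scaling by the library total alone gave 3 of the 9 genes and 26 of the other pathway genes lower with LPS, 2 and 0 of the latter higher and lower at 10 µM, and 0 of the 9 higher at 32 against 10 µM (Dusp1, adjusted p = 0.0534). All calls moved with this scaling from 7220 to 8001 with LPS, where the median of all genes became −0.202, from 378 to 353 at 10 µM and from 391 to 366 at 32 against 10 µM. The fits of the 4 compared libraries gave 2 higher and 4 lower of the other genes at 32 µM, 0 of the 9 lower and 0 and 0 of the others at 10 µM, 0 higher and 0 lower of the 9 at 32 against 10 µM, and 1 of the 9 lower at 3.2 µM. Calls among all tested genes moved with this setting from 1386 to 1001 at 32 µM, 378 to 12 at 10 µM, 391 to 0 at 32 against 10 µM and 0 to 344 at 3.2 µM. With the short-transcript score the other genes numbered 8 higher and 13 lower at 32 µM and 6 and 6 at 10 µM, and the 9 genes 1 and 4 at 10 µM, 1 and 2 at 3.2 µM, 2 higher at 32 against 10 µM, and 1 and 2 at 10 against 3.2 µM. All calls rose with the score to 3614 at 32 µM, 1666 at 10 µM, 183 at 3.2 µM, 1472 at 32 against 10 µM and, from 128, to 1001 at 10 against 3.2 µM. DESeq2 passed Dusp16 at 10 µM, and gave 3 and 3 of the other genes there and 1 of the 9 lower at 3.2 µM and at 10 against 3.2 µM, where all calls numbered 629, 35 and 335. The likelihood ratio test gave 2 other genes higher at 10 µM and 1 of the 9 lower at 32 against 10 µM, where all calls numbered 444 and 463, and a mean of at least 5 CPM gave 2 other genes lower at 10 µM, where 407 of 9566 tested genes passed. A change of at least 1.5-fold was reached by 18 higher and 6 lower of the other genes with LPS, 1 and 2 at 32 µM and 0 and 0 at 10 µM, and by 0 higher and 1 lower of the 9 at 32 µM and at 32 against 10 µM, 1 lower at 10 µM, and 5 higher and 1 lower at 32 µM against DMSO.

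Leaving out 1 library moved the counts of the 9 genes at 32 µM to 0 to 2 higher, at 10 µM to 0 to 3 lower, at 32 against 10 µM to 0 to 1 higher and 1 to 2 lower, and at 32 µM against DMSO to 1 to 2 lower. The other pathway genes numbered 1 to 4 higher and 3 to 7 lower at 32 µM, and 0 to 1 higher and 0 to 0 lower at 10 µM. All calls in these leave-outs ran from 736 to 1589 at 32 µM, 82 to 364 at 10 µM and 198 to 384 at 32 against 10 µM. Changes of sign were limited to log2 fold changes that did not pass. With the short-transcript score Mapk8 became 0.02 with LPS, −0.01 at 32 against 10 µM and 0.01 at 32 µM against DMSO, and Mapk3 −0.04 at 3.2 µM and 0.01 at 32 against 10 µM. With the library total alone Mapk8 became 0.0005 at 32 µM, 0.01 at 10 µM and −0.0045 at 32 against 10 µM, and Mapk14 0.01 at 10 against 3.2 µM. Without a filter Mapk3 and Mapk8 became −0.0014 and −0.0008 at 3.2 µM, and with a mean of at least 5 CPM Mapk8 became −0.0006 at 32 against 10 µM. With 1 library left out, Mapk8 ranged from −0.06 to 0.02 with LPS, −0.06 to 0.06 at 32 µM, −0.03 to 5e-04 at 10 µM, −0.04 to 0.06 at 3.2 µM, −0.06 to 0.06 at 32 against 10 µM, −0.07 to 0.03 at 10 against 3.2 µM and −0.08 to 0.04 at 32 µM against DMSO. Mapk3 ranged from −0.07 to 0.16 at 32 µM, −0.07 to 0.21 at 10 µM, −0.0041 to 0.03 at 3.2 µM, −0.17 to 0.12 at 32 against 10 µM and −0.08 to 0.21 at 10 against 3.2 µM. Mapk14 ranged from −0.11 to 0.03 and −0.08 to 0.06 in these last comparisons, Dusp16 from −0.13 to 0.03 at 32 against 10 µM and Mapkapk2 from −0.03 to 0.02 at 3.2 µM.

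Replicate numbers are shared by all conditions. The deviations of same-numbered libraries from their group means correlated between −0.162 and 0.604 over 10 pairs of conditions. The correlation was 0.604 between 10 and 3.2 µM, 0.399 to 0.465 among DMSO, 32 and 10 µM, and negative for every pair with DMSO + LPS. Libraries of the same number thus differed alike in some conditions and not in others. The study names no pairing, and the main fit held no replicate block. A replicate block changed no count of the 9 genes, gave 2 other pathway genes higher at 10 µM, and moved the count of all genes at 32 µM from 1386 to 1596.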
